A study of Mus musculus with 39 samples.

Results

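Enzymes that make glucose, detoxify ammonia and break down amino acids in the liver were followed in mice after 2 hours of reduced oxygen. The 33 genes were chosen by name, and each was read through array probe sets annotated to that 1 symbol only, with the probe set of highest mean in a tissue standing for the gene there. Of the 33 genes, 30 had such a probe set, out of 18193 genes named in this way on the array, and Sds, Sdsl and Gls2 were not analysed here. Genes in the dimmest 30% of a tissue by mean intensity were not tested there, and 12735 genes remained in each tissue. The 30 measured genes passed this filter in liver, where the lowest control mean among them was a log2 intensity of 6.56 against a filter limit of 4.93. In bone marrow 19 of the 33 passed and in spleen 20.

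The mice were B6C3F1, which are hybrids of C57BL/6 and C3H, and RNA of 3 tissues was read on 39 Affymetrix arrays. There were 16 liver and 16 spleen arrays, 8 labelled control and 8 labelled reduced oxygen in each tissue. Of the 7 bone marrow arrays 3 were controls and 4 were from reduced oxygen, and the labelled time was 2 hours throughout. The titles call the controls vehicle without naming a substance, and the labels give no oxygen level, age, sex or feeding state. They do not say whether the samples of a group came from separate mice, so the p-values measure the spread between these samples, which may be technical.

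Gluconeogenesis builds glucose from lactate, glycerol and amino acid carbon, and its last step, the removal of phosphate from glucose-6-phosphate, releases glucose from the liver to the blood. Amino acids enter the pathway once aminotransferases have moved their nitrogen to glutamate and aspartate, and the urea cycle turns that nitrogen into urea. In the liver several of these genes are classic targets of glucagon, acting through cyclic AMP, and of glucocorticoids, which raise them in fasting and stress, while insulin lowers them.

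The summed intensity of 8 hepatocyte markers was 201107 to 208392 in liver and 282 to 1162 in spleen. Pancreatic acinar markers summed to 40751 in spleen control 5 and 7699 in spleen reduced oxygen sample 2, against 439 to 1438 in the other spleens, so these 2 spleen arrays carry markers of another tissue. Liver arrays of replicates 1 to 4 and of replicates 5 to 8 differed in their intensity distributions, with 30th percentiles of 4.15 to 4.23 and 4.28 to 4.31 on the log2 scale, and changes are therefore also given within each set. The summed intensity of 9 neutrophil markers was 329 to 1197 in liver controls and 394 to 15357 under reduced oxygen. The reduced oxygen samples 3, 4, 6, 7 and 8 exceeded every control in this sum, in liver and, with 34857 to 71340 against a highest control of 30407, in spleen. In liver 92.7% to 95.4% of the sum in these 5 samples was Lcn2, a secreted protein that hepatocytes also make in the acute phase response. Without Lcn2 the sum was 235 to 302 in controls, up to 989 in samples 3, 6, 7 and 8, each of them above every control, and 287 in sample 4, within the control range. Of the 7 neutrophil markers that passed the filter in liver 3 were higher, Lcn2 by 3.48 ± 1.05, S100a8 by 1.81 ± 0.48 and S100a9 by 1.39 ± 0.36. The other 4 were not called, with Cxcr2 at -0.23, Elane at 0.07, Ngp at 0.06 and Ltf at 0.01, and the list median was 0.07. In spleen Lcn2 was only 3.13% to 5.68% of the sum in these 5 samples. Without Lcn2 the spleen sum was 33765 to 67288 in them and 9315 to 29466 in controls. The fits in liver and spleen were repeated without these 5 samples, which leaves 3 reduced oxygen samples. They are called high-Lcn2 here after the liver values, while in spleen the sum rests mostly on the other markers. The values of these fits stand beside the results they touch.

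In liver 6 of the 30 measured genes were higher under reduced oxygen and 2 were lower, by limma at an adjusted p under 0.05. Of all 12735 genes tested 11.1% were called, 3.88% higher and 7.22% lower. With the replicate number as a block, 18.7% of all genes and again 6 higher and 2 lower of the 30 were called. The log2 changes ran from -0.43 to 1.80 with a median of -0.01, beside a median of -0.03 over all genes, with 14 values above 0 and 16 below. The 6 that rose were spread over 4 roles: G6pc of gluconeogenesis, Ass1 and Asl of the urea cycle, Tat of tyrosine breakdown, and the aminotransferases Got1 and Gpt2. In 4 of the 30 genes, G6pc, Ass1, Tat and Got1, the lowest reduced oxygen sample lay above the highest control, and 2.84% of all genes tested had groups that did not overlap.

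**Figure D1:**
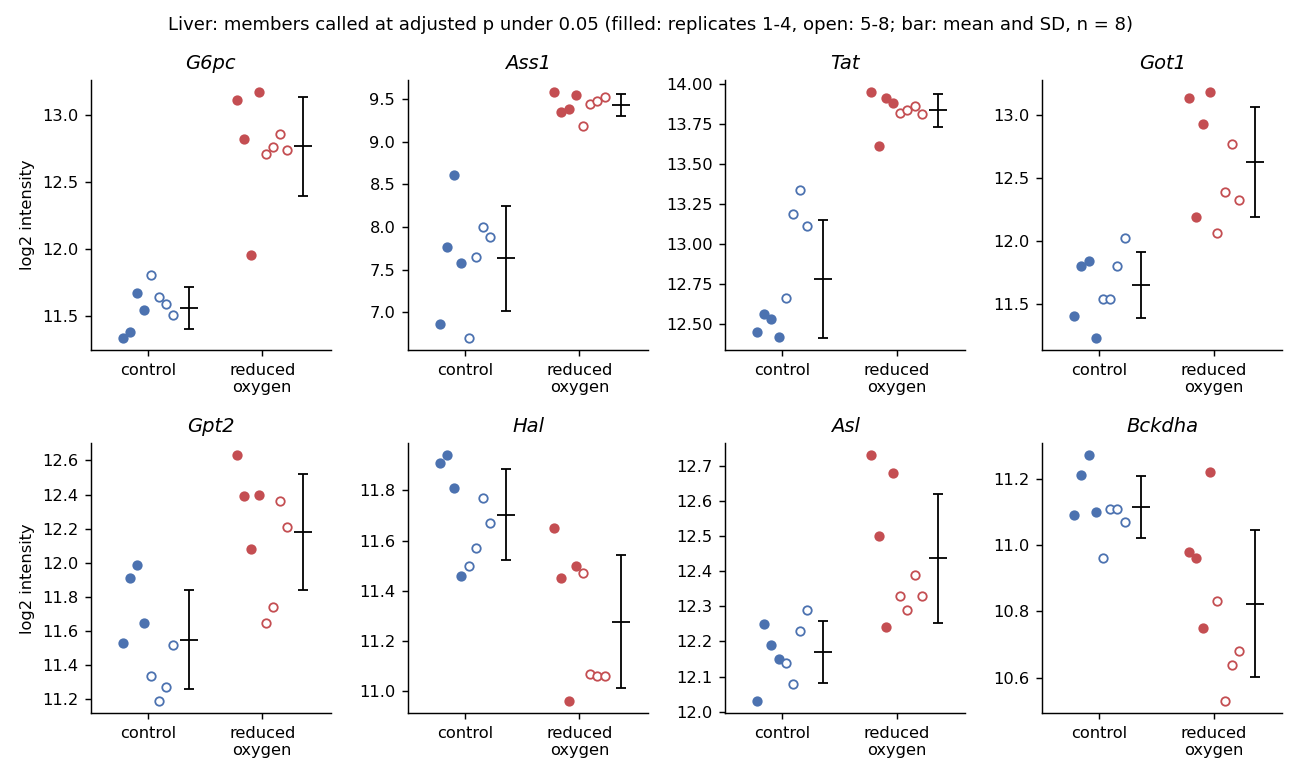
Log2 intensity of the 8 called genes in each liver sample, control in blue and reduced oxygen in red, with filled points for replicates 1 to 4, open points for 5 to 8, and bars for the mean and SD of 8 samples. G6pc, Ass1, Tat and Got1 show no overlap between groups, and the y axes differ between panels and do not start at 0.

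G6pc, the catalytic subunit of glucose-6-phosphatase, carries out the last step of gluconeogenesis. Its log2 intensity (probe set 1417880_at) was 11.34 at the lowest, 11.57 at the median and 11.81 at the highest in 8 controls, and 11.96, 12.79 and 13.17 in 8 reduced oxygen samples. The reduced oxygen sample 3 was the low one, and the other 7 lay at 12.71 or above. G6pc rose by 1.21 ± 0.13 (standard error, as for every log2 change here), 2.31-fold, with limma's adjusted p = 2.72e-06. The rise was 1.28 ± 0.23 within replicates 1 to 4 and 1.13 ± 0.08 within 5 to 8, and 1.32 ± 0.11 (adjusted p = 1.16e-05) without the 5 high-Lcn2 samples.

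The other gluconeogenesis genes were not called. Pck1, the cytosolic phosphoenolpyruvate carboxykinase and like G6pc a textbook target of cyclic AMP, was at 12.93, 13.36 and 13.60 (lowest, median, highest) in controls and 13.31, 13.49 and 13.73 under reduced oxygen. The groups overlapped, and the difference was 0.16 ± 0.09 (limma's adjusted p = 0.318). A dimmer Pck1 probe set differed by 0.36. Slc37a4, the transporter that brings glucose-6-phosphate to G6pc in the endoplasmic reticulum, differed by 0.23 ± 0.10 (adjusted p = 0.177), with 3 of 8 reduced oxygen samples above all controls. The mitochondrial carboxykinase Pck2 differed by 0.08 ± 0.08, fructose-bisphosphatase Fbp1 by -0.01 ± 0.06 and pyruvate carboxylase Pcx, which makes oxaloacetate for the pathway, by 0.07 ± 0.08.

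Upstream sequence is shown for G6pc and Pck1 because both are textbook cyclic AMP targets and G6pc alone was called, and for Tat and Ass1 because, of the 4 genes whose groups did not overlap, their windows hold a motif. The windows come from RefSeq on GRCm38.p6 and run from 250 bases before to 50 bases after the annotated start, 5′ to 3′ on the gene's strand, with capitals marking matches to the motifs named below.
G6pc (chr11:101367466-101367765, plus strand): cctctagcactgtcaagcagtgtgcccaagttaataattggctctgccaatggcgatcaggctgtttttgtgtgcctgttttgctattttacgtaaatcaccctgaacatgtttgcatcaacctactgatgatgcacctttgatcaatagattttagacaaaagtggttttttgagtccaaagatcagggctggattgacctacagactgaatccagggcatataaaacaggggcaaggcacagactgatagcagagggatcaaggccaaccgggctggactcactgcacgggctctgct
Pck1 (chr2:173152823-173153122, plus strand): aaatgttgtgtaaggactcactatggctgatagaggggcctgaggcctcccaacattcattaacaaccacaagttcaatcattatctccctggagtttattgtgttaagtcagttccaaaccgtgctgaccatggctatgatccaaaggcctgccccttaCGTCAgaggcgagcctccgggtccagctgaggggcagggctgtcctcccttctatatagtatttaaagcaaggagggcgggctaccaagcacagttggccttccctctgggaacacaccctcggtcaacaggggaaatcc
Tat (chr8:109990186-109990485, plus strand): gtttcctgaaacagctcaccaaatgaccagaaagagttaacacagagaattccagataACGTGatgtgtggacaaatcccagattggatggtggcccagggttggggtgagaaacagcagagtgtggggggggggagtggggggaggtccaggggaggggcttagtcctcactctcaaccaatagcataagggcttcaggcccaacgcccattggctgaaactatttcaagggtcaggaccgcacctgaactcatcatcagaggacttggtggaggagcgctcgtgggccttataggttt
Ass1 (chr2:31470020-31470319, plus strand): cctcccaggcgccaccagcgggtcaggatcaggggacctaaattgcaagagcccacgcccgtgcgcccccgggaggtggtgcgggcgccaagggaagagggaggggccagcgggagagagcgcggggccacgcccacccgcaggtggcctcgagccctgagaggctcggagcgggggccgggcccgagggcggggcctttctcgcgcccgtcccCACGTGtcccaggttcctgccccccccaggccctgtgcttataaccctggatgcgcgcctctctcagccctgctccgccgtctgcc

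Of the 33 genes 26 matched a RefSeq window by symbol, with 30 windows in all. Both strands were searched for the cAMP response element core TGACG, the glucocorticoid response element (AGAACA and TGTTCT with any 3 bases between them) and its arm TGTTCT alone, the hypoxia response element core ACGTG, and the C/EBP site TTGCNNAA. The Pck1 window holds TGACG, read as CGTCA on the strand shown, at base -90 from the start. Tat holds ACGTG at -192. Ass1 holds it at -35 and, on the opposite strand, at -36, both within the single palindrome CACGTG. None of the 5 motifs matched in the G6pc or Got1 windows, which says only that these letters are not in these windows. TGACG was found in 6 of the 30 windows, of 5 of the 26 genes, and in 20.8% of all 32851 windows. ACGTG was found in 5 of the 30 windows and 19.6% of all, TGTTCT in 3 and 19.0%, and TTGCNNAA in 2 and 10.8%. The full glucocorticoid element was found in 0 of the 30 windows and 0.00913% of all. TGACG and ACGTG share bases where they meet as TGACGTG, and a match is no evidence of binding.

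**Figure D2:**
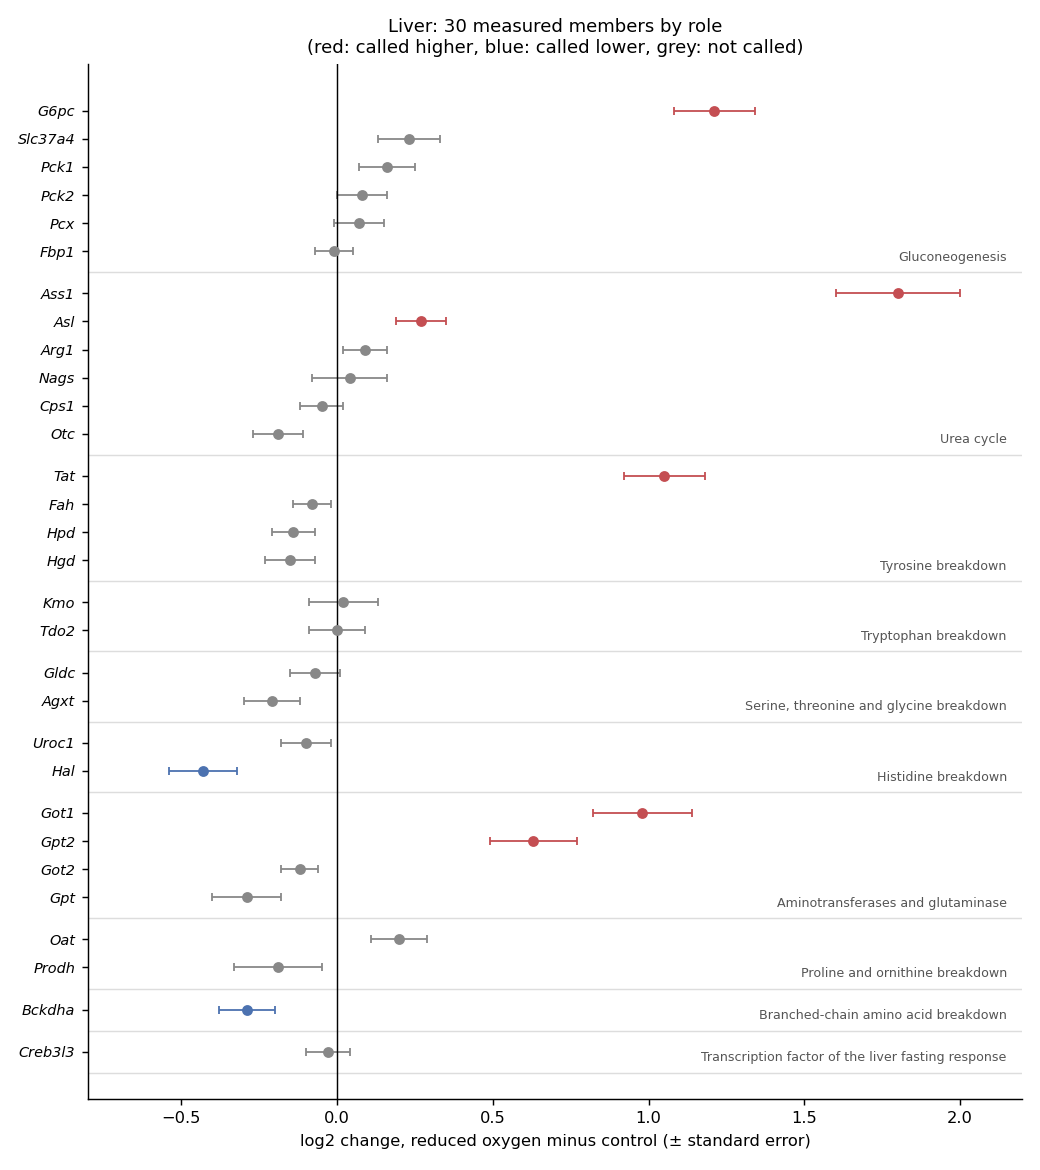
Log2 change in liver, reduced oxygen minus control, with its standard error, for the 30 measured genes grouped by role. The 6 genes called higher are red, the 2 called lower blue and the 22 not called grey, and the grey points lie between -0.29 and 0.23.

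In the urea cycle the 2 enzymes that make and split argininosuccinate rose. Ass1, argininosuccinate synthase, was at 6.70, 7.71 and 8.61 (lowest, median, highest) in controls and 9.18, 9.46 and 9.58 under reduced oxygen. Controls spread widely, with an SD of 0.61 against 0.13 in the reduced oxygen samples, and the groups did not overlap. Ass1 rose by 1.80 ± 0.20, 3.48-fold (limma's adjusted p = 3.13e-06), by 1.76 ± 0.28 and 1.84 ± 0.24 within the 2 replicate sets, and by 1.74 ± 0.31 (adjusted p = 0.00406) without the 5 high-Lcn2 samples. The value rests on 1 probe set, 1459937_at, the only one annotated to Ass1 alone, and a further probe set annotated to both Ass1 and Gm5424 was not used. Its control mean of 7.63 was the lowest of the urea cycle genes, against 9.59 for Nags, 12.17 for Asl and 13.94 for Cps1. How much of the Ass1 RNA this probe set reads was not tested, so the fold applies to this probe set.

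Asl, argininosuccinate lyase (probe set 1448350_at), was at 12.03, 12.17 and 12.29 in controls and 12.24, 12.36 and 12.73 under reduced oxygen, with 6 of 8 reduced oxygen samples above all controls. It rose by 0.27 ± 0.08, 1.20-fold (limma's adjusted p = 0.0303). This call was lost when control 1, 4 or 6 or reduced oxygen sample 1 or 4 was left out, with adjusted p up to 0.0611, within either replicate set (0.38 and 0.15), and without the 5 high-Lcn2 samples (0.35, adjusted p = 0.0672).

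The remaining urea cycle genes were not called. Cps1, the mitochondrial carbamoyl phosphate synthetase at the entry of the cycle, was at 13.90, 13.93 and 14.00 in controls and 13.73, 13.88 and 14.13 under reduced oxygen, and its SD was 0.04 and 0.15. Arg1, the arginase that releases urea, differed by 0.09 ± 0.07, and Nags, which makes the activator of Cps1, by 0.04 ± 0.12. Otc, ornithine transcarbamylase, was at 12.83, 12.93 and 13.03 in controls and 12.47, 12.74 and 12.97 under reduced oxygen, where 5 of 8 samples lay below all controls. Its difference was -0.19 ± 0.08 (adjusted p = 0.117), with -0.53 and -0.12 in its other 2 probe sets. Averaged over the 3 probe sets it passed at -0.28 (adjusted p = 0.0454), and without the 5 high-Lcn2 samples the brightest one differed by -0.02 (adjusted p = 0.984).

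Of the 4 tyrosine breakdown genes the first enzyme, Tat, was called. Tat, tyrosine aminotransferase and a long-known glucocorticoid target (probe set 1451557_at), was at 12.42, 12.61 and 13.34 in controls and 13.61, 13.85 and 13.95 under reduced oxygen. The groups did not overlap, and the reduced oxygen samples were close together with an SD of 0.10 against 0.37 in controls. Tat rose by 1.05 ± 0.13, 2.07-fold (limma's adjusted p = 9.73e-06), and by 1.01 ± 0.19 (adjusted p = 0.00828) without the 5 high-Lcn2 samples. Controls 1 to 4 lay at 12.42 to 12.56 and controls 5 to 8 at 12.66 to 13.34, so the rise was 1.35 within the first set and 0.76 within the second. The later steps, Hpd (-0.14 ± 0.07), Hgd (-0.15 ± 0.08) and Fah (-0.08 ± 0.06), which carry tyrosine carbon on to fumarate and acetoacetate, were not called.

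Of the 4 aminotransferases measured the cytosolic Got1 and the mitochondrial Gpt2 were called, and Got2 and Gpt were not. Got1, the cytosolic aspartate aminotransferase (probe set 1450970_at), was at 11.23, 11.67 and 12.02 in controls and 12.06, 12.58 and 13.18 under reduced oxygen, without overlap. It rose by 0.98 ± 0.16, 1.97-fold (limma's adjusted p = 0.000368), by 1.29 ± 0.22 within replicates 1 to 4 and 0.66 ± 0.15 within 5 to 8, and by 0.82 ± 0.21 (adjusted p = 0.044) without the 5 high-Lcn2 samples. Got2, the mitochondrial form, was at 12.66, 12.77 and 12.89 in controls and 12.50, 12.67 and 12.76 under reduced oxygen. All 8 reduced oxygen samples of Got2 lay below the control median, but the difference of -0.12 ± 0.06 did not pass (adjusted p = 0.199).

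Gpt2, the mitochondrial alanine aminotransferase (probe set 1438385_s_at), was at 11.19, 11.52 and 11.99 in controls and 11.65, 12.29 and 12.63 under reduced oxygen. The groups overlapped across the replicate sets, and 6 of 8 reduced oxygen samples lay above all controls. Gpt2 rose by 0.63 ± 0.14, 1.55-fold (limma's adjusted p = 0.00613), by 0.61 and 0.66 within the 2 replicate sets and by 0.55 to 0.68 in its 4 probe sets. Without the 5 high-Lcn2 samples the value was 0.67 ± 0.20 but no longer passed (adjusted p = 0.103). Gpt, the cytosolic form, was at 11.15, 11.32 and 11.62 in controls and 10.67, 11.05 and 11.45 under reduced oxygen, a difference of -0.29 ± 0.11 that was not called (adjusted p = 0.109). Its 2 probe sets disagreed, the dimmer one differing by 0.35, and their mean differed by 0.03. Gpt was called lower without reduced oxygen sample 1 (-0.35, adjusted p = 0.0436), and it differed by -0.06 (adjusted p = 0.936) without the 5 high-Lcn2 samples.

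The 2 genes that fell were Hal and Bckdha. Hal, histidine ammonia-lyase and the first step of histidine breakdown (probe set 1418645_at), was at 11.46, 11.72 and 11.94 in controls and 10.96, 11.26 and 11.65 under reduced oxygen. It fell by 0.43 on the log2 scale with a standard error of 0.11 (limma's adjusted p = 0.0138). The reduced oxygen samples 3, 6, 7 and 8 lay at 10.96 to 11.07 and samples 1, 2, 4 and 5 at 11.45 to 11.65. Within replicates 1 to 4, where Hal was not called, its means were 11.78 in controls and 11.39 under reduced oxygen. Within 5 to 8, where it was called, they were 11.63 and 11.17.

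Bckdha, a subunit of the dehydrogenase that commits branched-chain amino acids to breakdown (probe set 1416647_at), was at 10.96, 11.10 and 11.27 in controls and 10.53, 10.79 and 11.22 under reduced oxygen. It fell by 0.29 on the log2 scale with a standard error of 0.09 (limma's adjusted p = 0.0359). Its reduced oxygen samples 3, 6, 7 and 8 lay at 10.53 to 10.75 and the others at 10.83 to 11.22. Within replicates 1 to 4, where Bckdha was not called, its means were 11.17 in controls and 10.98 under reduced oxygen. Within 5 to 8, where it was called, they were 11.06 and 10.67. Only 5 of 16 fits that left out a sample called Bckdha: the call was lost without any of controls 1, 2, 3, 4, 6, 7 and 8 and reduced oxygen samples 3, 6, 7 and 8, with adjusted p up to 0.078.

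Both falls moved with several marker lists. The 4 reduced oxygen samples lowest for Hal and for Bckdha, 3, 6, 7 and 8, had the 4 highest neutrophil marker sums, 8668 to 15357, which are mostly Lcn2, while samples 1, 2 and 5 had 394 to 434 and sample 4 had 3916. They also had the highest macrophage and Kupffer cell sums of the group, 7257 to 9659 against 3643 to 5509 in the other 4 and 3906 to 7175 in controls. Their pericentral hepatocyte sums were the lowest, 34072 to 36333 against 38379 to 40261 in the other 4 and 38135 to 41988 in controls. Their periportal hepatocyte sums were also the lowest, 24486 to 28199 against 28465 to 30337 in the other 4 and 26836 to 32757 in controls. The same held for their erythroid sums, 1372 to 1502 against 1542 to 1809 in the other 4 and 1540 to 2163 in controls. Of the 9 macrophage markers 0 were called by limma, with 1 at an unadjusted p under 0.05, and all 9 were above 0 (median 0.20). Of the 8 pericentral ones Axin2 alone was called, lower by -0.67 ± 0.08. The pericentral list had a median of 0.00, with 4 markers above 0 and 4 below. Of the 6 periportal ones 0 were called, with 3 above 0 and 3 below. The part of any of these in the falls was not tested. Without the 5 high-Lcn2 samples Hal differed by -0.18 ± 0.11 (adjusted p = 0.627) and Bckdha by -0.19 ± 0.08 (adjusted p = 0.351). In these bulk samples fewer cells of a type and less RNA per cell cannot be told apart. The 8 hepatocyte markers, bright transcripts in which a small shift may not show, summed to 203267 to 207664 in controls and 201107 to 208392 under reduced oxygen.

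The other measured genes gave values between -0.21 and 0.20. Tdo2, the tryptophan dioxygenase that opens the kynurenine pathway and, like Tat, a classic glucocorticoid target, was at 13.53, 13.85 and 14.02 in controls and 13.56, 13.81 and 14.04 under reduced oxygen. Its groups covered nearly the same range, and the difference was 0.00 ± 0.09 (limma's adjusted p = 0.986). Kmo, the kynurenine hydroxylase further along that pathway, differed by 0.02 ± 0.11. Oat, ornithine aminotransferase, differed by 0.20 ± 0.09 (adjusted p = 0.15), with 8 of 8 reduced oxygen samples above the control median, and Prodh, proline dehydrogenase, by -0.19 ± 0.14. Agxt, which transaminates glyoxylate, differed by -0.21 ± 0.09 (adjusted p = 0.156), the glycine cleavage subunit Gldc by -0.07 ± 0.08 and urocanase Uroc1, the step after Hal, by -0.10 ± 0.08. Creb3l3, a liver transcription factor active in fasting, differed by -0.03 ± 0.07.

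**Figure D3:**
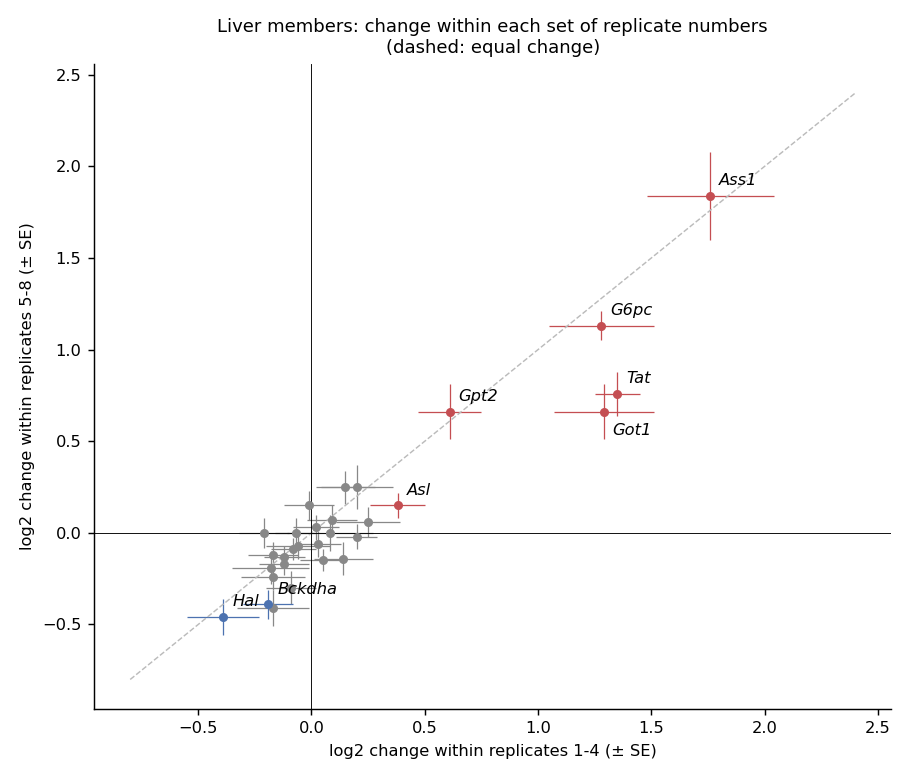
Log2 change of the 30 measured genes within liver replicates 1 to 4 (x axis) and within 5 to 8 (y axis), each 4 control against 4 reduced oxygen samples, with standard errors and a dashed line of equal change. Ass1, G6pc and Gpt2 lie near the line, and Tat (1.35 and 0.76) and Got1 (1.29 and 0.66) lie below it.

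The samples differed among themselves across the list. Among the reduced oxygen livers, sample 1 was the highest of the group in 14 of the 30 genes and sample 4 in 10, while sample 3 was the lowest in 10. Among controls, sample 3 was the highest in 11 and sample 5 the lowest in 9. RNA integrity also differed: the log2 difference between the 3′ and 5′ control probe sets of Pcx was 3.04 ± 0.98 (SD, n = 8) in controls and 2.58 ± 0.76 (SD, n = 8) under reduced oxygen. It was 3.34 to 4.44 in controls 1 to 4 and 2.14 to 4.09 in reduced oxygen samples 1 to 4. In replicates 5 to 8 it was 1.76 to 2.61 in controls and 1.91 to 2.63 under reduced oxygen. The 3′ control probe set of Pcx, itself one of these genes, differed by 0.06 between groups and its 5′ probe set by 0.53. For the control probe sets of Tfrc the gap went the other way, 1.70 ± 0.06 (SD, n = 8) in controls and 2.03 ± 0.25 (SD, n = 8) under reduced oxygen. The part of RNA integrity in the changes was not tested.

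**Figure D4:**
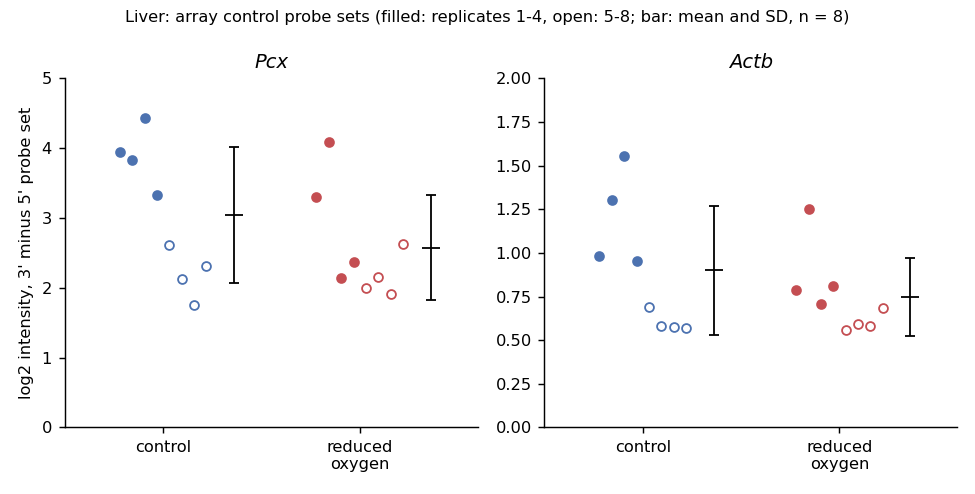
Log2 difference between the 3′ and 5′ control probe sets of Pcx and Actb in each liver sample, with filled points for replicates 1 to 4, open points for 5 to 8 and bars for the mean and SD of 8 samples. The gap for Pcx reached 4.44 in controls 1 to 4 and lay between 1.76 and 2.63 in replicates 5 to 8 of both groups.

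In bone marrow and spleen few of these genes were called. In bone marrow 0 of the 19 tested were higher and 1 was lower by limma, with 4 at an unadjusted p under 0.05. Of all genes tested there 7.69% were called, 2.76% higher and 4.92% lower. The number of all genes called there fell from 979 to 447 without control 2, 650 without control 3, and 408 and 469 without reduced oxygen samples 2 and 3. In spleen 1 of 20 was higher and 1 lower, against 19.4% of all genes called, 6.83% higher and 12.6% lower, and each count here is 0 or 1 gene. Without reduced oxygen sample 4 spleen had 2 lower, with Gpt at -0.26 (adjusted p = 0.0263) in its brightest spleen probe set, 1453216_at. The Gpt probe set read in liver, 1426502_s_at, differed by -0.01 in spleen over all samples. G6pc and Ass1 were below the filter limit in both tissues, with log2 means of 4.50 and 3.71 in bone marrow controls and 4.01 and 3.98 in spleen controls.

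Kmo, called in neither direction in liver, fell in both other tissues. In spleen its log2 intensity (probe set 1418998_at) was 9.37, 9.66 and 9.94 (lowest, median, highest) in controls and 8.16, 8.91 and 9.27 under reduced oxygen, without overlap. It fell by 0.73 on the log2 scale with a standard error of 0.14 (limma's adjusted p = 0.00103). In bone marrow the 3 controls were at 8.08, 7.97 and 8.09 and the 4 reduced oxygen samples at 7.65, 7.67, 7.67 and 7.81, again without overlap. It fell there by 0.35 on the log2 scale with a standard error of 0.06 (adjusted p = 0.0159), and the call was lost without control 3 or reduced oxygen sample 2 or 3, with adjusted p up to 0.0589.

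Markers of other cells also differed between spleen samples, and their part in the fall of Kmo was not tested. The reduced oxygen sample lowest for Kmo, number 4 at 8.16, also had the lowest B cell marker sum, 7181 against 16756 to 23873 in the other reduced oxygen samples and 17402 to 28336 in controls, and the lowest T cell sum, 1218 against 2753 to 4263. Of the 5 B cell markers 1 was called lower, Cd79b by -0.57 ± 0.19, and all 5 were below 0 (median -0.48). Of 9 neutrophil markers 2 were called higher, and all 9 were above 0 (median 0.99). Of 5 T cell markers 0 were called, and all 5 were below 0 (median -0.30). Of 6 erythroid markers 0 were called, and all 6 were above 0 (median 0.61). Over all genes tested in spleen 6.83% were called higher and 12.6% lower. Without the arrays carrying acinar markers, control 5 or reduced oxygen sample 2, Kmo differed by -0.75 and -0.78. Without sample 4 Kmo differed by -0.62 (adjusted p = 0.00028). Without the 5 spleen samples of high neutrophil marker sum (high-Lcn2) it differed by -0.41 ± 0.12 (adjusted p = 0.0505). Within replicates 1 to 4 it differed by -0.75 ± 0.25 (adjusted p = 0.133) and within 5 to 8 by -0.71 ± 0.11 (adjusted p = 0.00213). In bone marrow 0 of 5 B cell and 0 of 9 neutrophil markers were called by limma, with 0 and 1 at an unadjusted p under 0.05. Kynu, the next enzyme of the kynurenine pathway after Kmo, named after its value was seen, fell in spleen by 0.52 on the log2 scale with a standard error of 0.14 (adjusted p = 0.0156), and differed by -0.14 (adjusted p = 0.412) without the 5 high-Lcn2 samples.

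Got2 was the gene called higher in spleen. It was at 10.28, 10.36 and 10.48 in controls and 10.40, 10.51 and 10.64 under reduced oxygen, and it rose by 0.16 ± 0.05 (limma's adjusted p = 0.0316). The call was lost without control 3, 6 or 7 or reduced oxygen sample 3, 6 or 7, with adjusted p up to 0.0659, with the mean of its probe sets (0.11), with the replicate number as a block (0.16, adjusted p = 0.108), within replicates 1 to 4 (0.12, 0.408) and within 5 to 8 (0.19, 0.0904), and without the 5 high-Lcn2 samples (0.08, adjusted p = 0.577). Of the genes called in liver, Got1 differed by 0.02 ± 0.11 in spleen and 0.00 ± 0.13 in bone marrow and Asl by -0.04 ± 0.08 and 0.00 ± 0.05. Gpt2 differed by 0.10 ± 0.09 and 0.10 ± 0.06 in its brightest probe set there, 1439029_at, while the one called in liver, dim in both tissues, differed by 0.82 in spleen and 0.65 in bone marrow, so the liver value and these cannot be set against each other. Hal differed by -0.16 ± 0.07 in spleen and 0.15 ± 0.13 in bone marrow, and Bckdha by 0.05 ± 0.10 and 0.24 ± 0.07 (adjusted p = 0.0848 in bone marrow).

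Fbp1 had the highest difference of the 19 genes in bone marrow and did not pass. The 3 controls were at 6.29, 6.50 and 6.88 and the 4 reduced oxygen samples at 6.93, 6.93, 7.24 and 7.31. The groups did not overlap, and the difference was 0.55 ± 0.15 (limma's adjusted p = 0.0647). Fbp1 passed without control 3 (0.71, adjusted p = 0.0333). With 3 and 4 arrays, groups did not overlap in 4 of the 19 genes, Fbp1, Slc37a4, Kmo and Bckdha, of which only Kmo was called. The share without overlap over all genes was not computed in bone marrow, so little can be read from this.

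**Figure D5:**
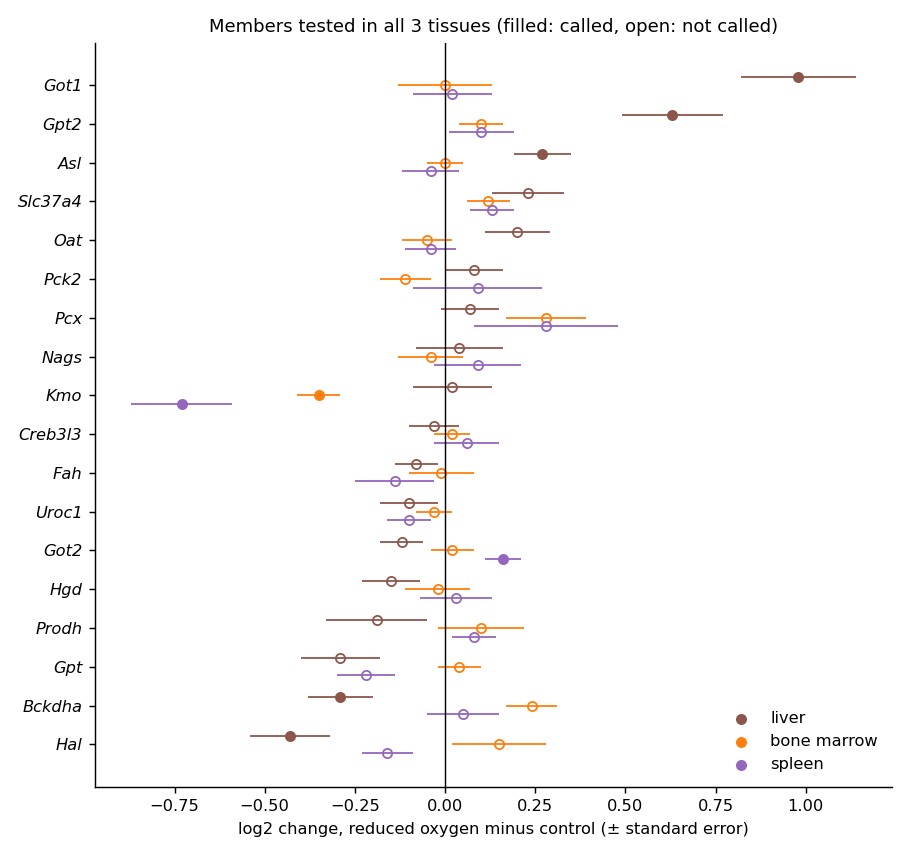
Log2 change with its standard error in liver, bone marrow and spleen for the 18 genes that passed the filter in all 3 tissues, filled where called, each from the brightest probe set of that tissue. Got1 and Asl are filled in liver and open in the other tissues. Kmo is called lower in spleen (-0.73) and bone marrow (-0.35), with a liver value of 0.02. Gpt2, Hgd and Uroc1 are drawn from a different probe set in liver than in the others, and Gpt from a different one in spleen.

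Whether the response differed between tissues was tested directly as the difference of the 2 changes. Between liver and spleen 5 of the 20 genes tested differed, against 9.84% of all genes tested. The liver change was larger by 1.13 ± 0.15 for Tat (limma's adjusted p = 7.86e-07), 0.95 ± 0.20 for Got1 (0.00102) and 0.31 ± 0.10 for Asl (0.0464). For Kmo the liver change minus the spleen change was 0.75 ± 0.16 (0.00192), with 0.02 in liver and -0.73 in spleen. For Got2 it was -0.28 ± 0.07 (0.00497), with -0.12 in liver and 0.16 in spleen. Tat was dim in spleen, with a control mean of 5.48 beside a filter limit of 5.38, and Asl did not pass when dim genes were kept in the test (0.0522).

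Between liver and bone marrow 2 of 19 genes differed, against 2.81% of all genes tested: Got1 by 0.97 ± 0.25 (limma's adjusted p = 0.0214) and Fbp1 by -0.56 ± 0.15 (0.0263). The difference for Kmo, 0.37 ± 0.21, did not pass there (0.463). No reading between tissues is given for Gpt2, whose probe sets disagreed outside liver. G6pc and Ass1 were too dim outside liver for this test, and Tat in bone marrow.

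The neighbours of these pathways were read from further lists, none of which holds one of the 33 genes. Of 44 other amino acid breakdown genes tested in liver 2 were higher and 10 lower, beside 3.88% higher and 7.22% lower of all genes, with a median change of -0.17 beside -0.03 over all genes. The lower ones included Bcat2, the mitochondrial branched-chain aminotransferase (-0.80 ± 0.10), serine hydroxymethyltransferase Shmt1 (-0.35 ± 0.08), hydroxyproline dehydrogenase Prodh2 (-0.35 ± 0.09), Ftcd of histidine breakdown (-0.33 ± 0.09) and Haao of the kynurenine pathway (-0.27 ± 0.07), and the lysine enzyme Aass was higher (0.42 ± 0.11). The count lower was 1 within replicates 1 to 4, where 3.73% of all genes were lower, 19 within 5 to 8, where 10.2% were, and 1 without the 5 high-Lcn2 samples, where 2.03% were. In that last fit Bcat2 differed by -0.81 (adjusted p = 0.00527) and Shmt1 by -0.20 (adjusted p = 0.409).

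Of 10 urea cycle transporters and arginine genes 1 was higher, the mitochondrial glutamate carrier Slc25a22 (0.29 ± 0.09), and 2 were lower, Car5a (-0.64 ± 0.16), the carbonic anhydrase that supplies bicarbonate to Cps1, and the glycerol and urea channel Aqp9 (-0.25 ± 0.08). Of 12 enzymes and carriers shared with glycolysis or the malate shuttle 1 was called, the dicarboxylate carrier Slc25a10, lower by -0.27 ± 0.08. Over all genes tested 3.88% were higher and 7.22% lower, and each count in these lists is at most 2 genes. All 4 calls were lost without the 5 high-Lcn2 samples, with Car5a at -0.40 (adjusted p = 0.55) and Slc25a10 at -0.12 (adjusted p = 0.797). Of 16 fits that left out a sample 4 called Slc25a22, 6 called Aqp9, 8 called Slc25a10 and 16 called Car5a.

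Of 31 hormone signals and regulators of these enzymes 6 were higher and 5 lower in liver, beside 3.88% and 7.22% of all genes. Their median change was 0.12, beside -0.03 over all genes. Cebpb, a transcription factor of gluconeogenic genes, rose by 1.24 ± 0.11 (limma's adjusted p = 2.15e-07), and the forkhead factors Foxo1 and Foxo3, which insulin keeps out of the nucleus, rose by 0.83 ± 0.15 and 0.60 ± 0.13. The insulin receptor substrate Irs1 fell by 1.08 on the log2 scale (adjusted p = 1.76e-05), Cebpa by 0.51 and the fatty acid sensor Ppara by 0.45. Without the 5 high-Lcn2 samples Cebpb differed by 1.18 (adjusted p = 0.000749), Irs1 by -0.89 (0.00377), Ppara by -0.49 (0.0341), Foxo1 by 0.72 (0.107), Cebpa by -0.45 (0.132) and Foxo3 by 0.70 (0.0582). Within replicates 1 to 4 Ppara differed by -0.41 (0.173). The other called genes, past the 6 of smallest p, were Sik1 (0.87 ± 0.21), Klf15 (0.40 ± 0.11) and Nr4a1 (0.39 ± 0.11), which rose. Creb1 (-0.38 ± 0.10) and the glucagon receptor Gcgr (-0.34 ± 0.10) were called lower. The coactivator Ppargc1a and the glucocorticoid receptor Nr3c1, named after their values were seen, differed by 0.68 ± 0.24 (adjusted p = 0.0825) and 0.02 ± 0.13. The same list had 5 genes higher and 0 lower of 28 in bone marrow, beside 2.76% and 4.92% of all genes. In spleen it had 6 higher and 4 lower of 27, beside 6.83% and 12.6%, and the share lower was near that of all genes.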

How the data were processed

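The authors deposited one linear intensity value per probe set and array, which was turned to log2. RMA and limma are named, without a version, in the submitters' processing notes, and no genome build is given in the sources used here. Array medians lay close together in each tissue but not across tissues, so no level was tested across tissues. The 64 control probe sets entered only the check of RNA integrity. Genes were named through the platform annotation, from probe sets with 1 symbol.

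Fits were run separately for the 3 tissues with limma 3.58.1 in R 4.3.3 (lmFit and eBayes, two-sided, no covariate), with Benjamini-Hochberg adjustment over the genes tested and a call at adjusted p under 0.05, checked on simulated data. Differences between tissues were interaction contrasts over the 39 arrays. The members, lists and rule for named genes were chosen with earlier results of these data known. The rule named every member, gave sample values for called members and their paralogs or neighbours, and up to 6 called genes of each further list by smallest p. Same-numbered samples of the groups deviated together in liver, with correlations of 0.166 to 0.535 (mean 0.303, against -0.041 for other numbers). Only 2 of 8 liver controls correlated best with their own number. The other numbers also span replicates 1 to 4 and 5 to 8, which differ, so whether liver samples are pairs is not settled. In bone marrow 2 of 3 controls correlated best with their own number and in spleen 1 of 8. The lowest correlations there were -0.027 and -0.478, and pairing is not shown. Alternatives covered probe set choice, filter, normalization, variance prior, replicate block, replicate sets and left-out samples, and the fit without the 5 liver or spleen samples of high neutrophil marker sum (high-Lcn2) was chosen after seeing the data.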

Additional observations from a re-analysis of the deposited data

Results flagged for a closer look

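Single samples stood apart from the other samples of their group in 9 of 119 gene and group combinations with 4 or more samples, and chance gives about 1 in 20 by this gap test. In the liver reduced oxygen group, sample 3 was low for G6pc (11.96, next 12.71), sample 4 high for Slc37a4 (11.49, next 11.09) and sample 2 low for Tat (13.61, next 13.81), and liver control 4 was low for Gldc (10.27, next 10.59). In bone marrow under reduced oxygen, sample 4 was high for Slc37a4 (8.60, next 8.46) and for Kmo (7.81, next 7.67), and sample 3 was low for Asl (8.22, next 8.25). In spleen, reduced oxygen sample 4 was low for Kmo (8.16, next 8.82) and control 2 low for Gpt2 (5.65, next 6.02).

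The response differed between liver and spleen in the limma interaction test for Tat (1.13), Got1 (0.95), Kmo (0.75), Asl (0.31) and Got2 (-0.28), and between liver and bone marrow for Got1 (0.97) and Fbp1 (-0.56), each as the liver change minus the other.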

How the results depend on the processing

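The precision rests on the number of arrays, and dim genes outside liver were not tested. The direction of every called member was the same under every alternative run. In liver, leaving out 1 sample gave 1072 to 1571 genes called, 5 to 6 members higher, 1 to 3 lower and a member median of -0.04 to 0.01. The replicate block, which treats equal numbers as pairs, gave 2385 genes (18.7% of those tested), the replicate set as a term 2668 and the fit within replicates 1 to 4 781. The block changed no call of a member in liver. Members lower numbered 0 within replicates 1 to 4 (3.73% of all genes lower), 4 of 30 within 5 to 8 (1894 genes called, 10.2% lower) and 0 without the 5 high-Lcn2 samples (429 genes called, 2.03% lower). In bone marrow 1 left-out sample gave 408 to 908 genes, 0 to 2 members higher, 0 to 1 lower and a median of -0.01 to 0.06, and the block gave 1 member higher, Fbp1 (adjusted p = 0.0208). In spleen it gave 2103 to 2871 genes, 0 to 1 higher, 1 to 2 lower and a median of 0.00 to 0.05. Members higher in spleen numbered 0 with the mean of probe sets, the block, within replicates 1 to 4 and without the 5 high-Lcn2 samples. Within 1 to 4 there were 482 genes and 0 members lower, within 5 to 8 3 of 20 members lower, near the 16.7% of all genes (3293 called), and without the 5 high-Lcn2 samples 1013 genes and 0 members lower. Quantile normalization gave 2 members with a lower liver than spleen change, Got2 and Bckdha (limma's adjusted p = 0.0377 for Bckdha). Against bone marrow it gave 3, Fbp1, Hal (0.0441) and Bckdha (0.0169). Keeping dim genes gave 4 with a larger liver than bone marrow change, and lets in members below the filter limit in bone marrow. The shares of all genes under these settings are not given here, so little can be read from these counts. The causes were not tested.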
